A study of Mus musculus with 5 samples.

Results

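This comparison set 2 libraries of NOD embryonic stem (ES) cells, NOD1 and NOD5, against 2 libraries of other background, B6 and v6.5, so 4 of the 5 libraries of the series were used and the NZB library was left out. NOD mice develop autoimmune diabetes spontaneously, B6 lines carry the C57BL/6 background, and v6.5 is labelled as 129SvJae6C57BL6, a mixed 129 and C57BL/6 background. All lines were grown untreated otherwise in 2i medium, which holds a MEK and a GSK3 inhibitor, without feeder cells, and poly-dT selected RNA was sequenced with its strand kept. Each library stands for 1 labelled line. The age of the embryos, the sex of each line and the number of cultures are not given in the labels, so each p-value speaks of the differences among these 4 libraries alone. The command kept in the table's header names 2 B6 directories and none for v6.5, which is why the name library labelled v6.5 is used below, and it names the NOD5 directory for lines 5 and 6, so whether NOD5 is 1 line is not known. B6 and the library labelled v6.5 are together called the control lines.

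ES cells are derived from the inner cell mass of the blastocyst and keep the capacity to form all tissues of the embryo. Under 2i they sit in a naive state held by transcription factors such as Oct4 (Pou5f1), Sox2 and Nanog, in which DNA methylation is low and genes of the germ line can be transcribed. A small share of ES cells passes at any time through a 2-cell-like state, in which the transcription factor Dux switches on genes that the embryo uses when its own genome is first read. Immune genes such as those of the major histocompatibility complex (MHC) are largely silent in these cells.

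The libraries held between 7713133 reads (NOD1) and 21387796 reads (NOD5) over genes, with 13431741 in B6 and 8594283 in the library labelled v6.5. Rn45s, the ribosomal RNA precursor, took 41.4% of the B6 reads against 1.95% to 14.3% in the other 3, so values were rescaled with TMM factors, and a level is given below in normalised reads of a library. Rmrp, the RNA of a mitochondrial and nucleolar ribonuclease, stood at 342010 and 193870 in the NOD lines against 53024 and 60014 and was not called (adjusted p = 0.0574). Equal totals in place of TMM would raise the median log2 fold change of all genes by 0.39. The markers of ES cells were present in every library: Pou5f1 stood between 3300 and 10173 normalised reads, Sox2 between 2596 and 7697 and Nanog between 1825 and 8633. Leukocyte markers did not set the sides apart. Of 14, 6 passed the filter on low values and limma, edgeR and DESeq2 called none, with 0 at an unadjusted p under 0.05. The list summed to 486 and 739 normalised reads in NOD5 and NOD1 against 1221 in B6 and 378 in the library labelled v6.5, and Ptprc, which marks all leukocytes, had at most 5 reads in any library.

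Of 13052 genes that passed the filter on low values, 644 were higher in the NOD lines (4.93% of genes tested) and 567 were lower (4.34%), 9.28% in either direction, at an adjusted p under 0.05 in limma. Below, called means called by limma unless another tool is named. The median log2 fold change of the genes called higher was 2.01, and that of the genes called lower was −1.72. No gene with an absolute log2 fold change under 0.96 was called. All calls had both NOD libraries on 1 side of both control libraries, but 4216 tested genes (32.3%) lay higher and 3721 (28.5%) lower in this way whether called or not. A gap of at least 2-fold between the nearest libraries of the sides was seen in 568 of the genes called higher and 446 of those called lower, against 7.16% and 5.35% of all genes tested. The calls were picked on these same values, so the gap describes them and is no separate support. The sides differed more than the lines within them: the median absolute log2 difference was 0.32 between B6 and the library labelled v6.5 and 0.46 between NOD1 and NOD5, and between 0.58 and 0.73 for pairs across the sides. With 2 libraries a side a permutation of a single value cannot give an exact p below 0.333, so the calls lean on the spread shared across genes. They also lean on each library. Limma called 345 higher and 161 lower without B6, 177 and 115 without the library labelled v6.5, 722 and 1041 without NOD5, and 0 without NOD1, where edgeR called 153 higher and 73 lower and limma had 3471 genes under 0.05 before adjustment.

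The genes that separated the lines most were of a few kinds. Among the 10 leading genes higher in the NOD lines were Gm2022 and Gm12794, multicopy genes of the early embryo, Xlr3a and Xlr3c, members of a multicopy X-linked family, the lens protein gene Crygd, Nlgn1, a neuronal adhesion protein, and Ttll11, a tubulin polyglutamylase. Gm9376 (Entrez Gene 668814, plus strand of chromosome 14, 118666380 to 118666992, mm9) led them, with 321 normalised reads in NOD1, 214 in NOD5 and no read in either control library. It was at least 124-fold higher against a floor of 3 reads over the control side (limma, adjusted p = 0.00427). 1700013H16Rik stood at 1383 and 1354 normalised reads in NOD1 and NOD5, 1.30 in B6 and 53.8 in the library labelled v6.5, so that the control lines themselves were far apart. Gm1821 had 155 and 248 normalised reads in the NOD lines and 1 read in the control libraries together, and the pooled ratio was 347 (95% counting interval 62.1 to 13734). All of the 10 but Gm12794 had under 10 reads in a control library. They passed the filter only with the help of the NOD libraries, which favours a higher value there.

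The leading genes lower in the NOD lines included growth and matrix factors. Fgf10, a growth factor of limb and lung budding, had 296 normalised reads in B6 and 251 in the library labelled v6.5, and 1 read in the NOD libraries together, so that the pooled ratio was 767 (counting interval 137 to 30365). Its log2 fold change in limma was −7.81 (SE 0.63) at an adjusted p of 0.00427. Hist1h3f, a replication-dependent histone H3 gene, fell from 669 and 1271 to 4.31 and 2.84 normalised reads. Nkx1-2, a homeobox gene of the early caudal embryo, fell from 247 and 206 to 0 and 9.0. A2m, the protease inhibitor alpha-2-macroglobulin, fell from 2145 and 802 to 15.8 and 64.9. Pla2g1b, a secreted phospholipase A2, and Cemip, which takes part in the breakdown of hyaluronan, were 63.9-fold and 91.0-fold lower, and Mid1, Hist1h2bg, Rerg and Kpna2 completed the 10. All of the 10 but A2m and Kpna2 had under 10 reads in a NOD library. They passed the filter on low values only with the help of the control libraries, which favours a lower value in the NOD lines. Kpna2 shared 62.6% and Gm2022 97.2% of their 50-base stretches with transcripts of other genes, as Gm1821 (84.9%) and Xlr3c (72.1%) also did, so reads of such genes may belong to a copy.

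**Figure D1:**
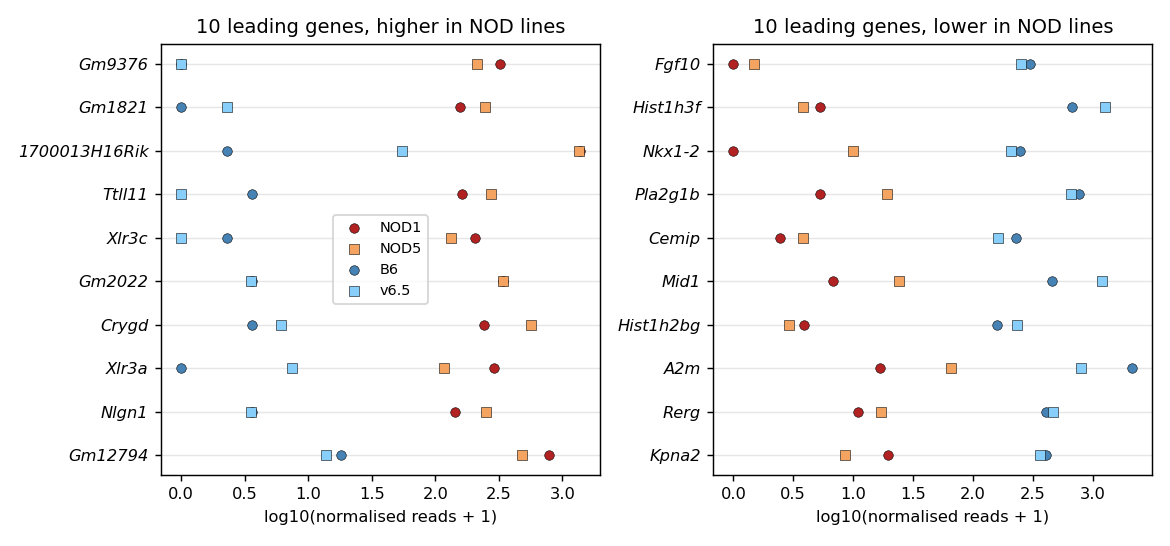
Normalised reads, as log10(value + 1), of the 10 leading genes higher (left) and the 10 leading genes lower (right) in the NOD lines, 1 point per library for NOD1, NOD5, B6 and v6.5, ordered by log2 fold change. In every row both NOD points lie apart from both control points, and 1700013H16Rik shows the widest distance between B6 and v6.5 on the left.

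Among the most abundant calls, Gnb2l1 (also known as Rack1, a scaffold of the ribosome) had 55533 and 45069 normalised reads in the NOD lines and 12508 and 13275 in the control lines. Lamp1 and Ctsd, a membrane protein and a protease of the lysosome, were 2.69-fold and 3.95-fold higher, and Ftl1, the ferritin light chain, was 2.67-fold higher. Eef1b2, Rplp0 and Rps14, all of the translation machinery, were 2.24-fold to 8.20-fold higher, and Psap and Dppa5a were also in the group. On the other side, Serbp1, an mRNA-binding protein, had 12663 and 15118 normalised reads in the NOD lines and 39854 and 38324 in the control lines. Mki67, the proliferation antigen Ki-67, fell 5.76-fold, Wnk1, a kinase of ion transport, 5.17-fold, and Dst, a very large cytolinker, 3.59-fold. Nasp, Srrm2, Tpr, Huwe1, Ywhae and Aldoa were 2.3-fold to 3.15-fold lower.

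Of 25 genes listed for the 2-cell-like state, 13 passed the filter, and 11 of these were called higher in the NOD lines and none lower. Of the 11, 9 had under 10 reads in a control library and so passed only with the help of the NOD libraries, which favours a higher value there, and the share called is not read against that of all genes. With no filter the 20 members with a read had a median log2 fold change of 3.43 and none was called. Dux, the transcription factor that opens this program, had 59.0 normalised reads in NOD1 and 36.5 in NOD5, and 1 read in the control libraries together, and the pooled ratio was 64.9 (counting interval 11.4 to 2586). Its target Zscan4d, which acts on telomeres, had 112 and 337 normalised reads in the NOD lines and 6.54 and 10.2 in the control lines. Gm2022 stood at 339 and 342 against 2.62 and 2.57, and Gm12794 at 778 and 477 against 17.0 and 12.8. Usp17la, a deubiquitinase of a multicopy family, stood at 184 and 85.2 against 3.92 and 3.84. Zscan4b, Zfp352, Gm5662, Gm8300 and Usp17ld were also higher, and Tdpoz3, with no read in the control libraries, was at least 21.1-fold higher. Of their 50-base stretches, 90.1% in Zscan4b, 77.9% in Gm5662, 66.2% in Tdpoz3, 51.1% in Usp17ld and 49.6% in Zscan4d occur in other genes, so members of this list may share reads. The 2 members tested and not called were Zscan4a (44.6 and 151 against 36.6 and 26.9) and Eif1a (2427 and 4126 against 3094 and 2912). In bulk RNA more cells in this state and more RNA per cell cannot be told apart. The count became 7 without the library labelled v6.5, 9 without B6, 8 without NOD5 and 0 without NOD1 (edgeR, 6 without NOD1).

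**Figure D2:**
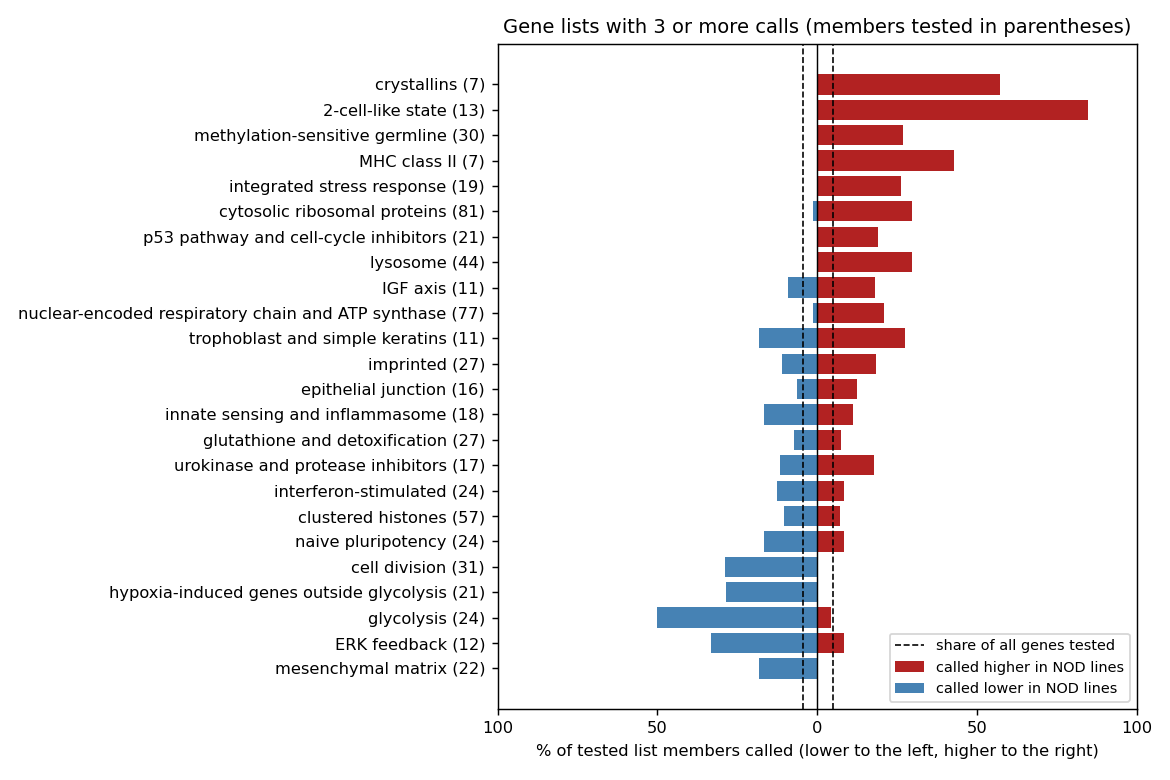
Share of tested members called higher (red, to the right) or lower (blue, to the left) in the NOD lines for every gene list with 3 or more calls, ordered by median log2 fold change, with dashed lines at the shares of all genes tested (4.93% and 4.34%). The 2-cell-like state list has the longest bar to the right, and the glycolysis list has the longest to the left. Most tested members of the 2-cell-like state, crystallin and MHC class II lists, and 12 of 30 methylation-sensitive germline genes, had under 10 reads in a control library. They passed the filter only with the help of the NOD libraries, so the bars of these lists are not read against the dashed lines.

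Gamma crystallins are soluble structural proteins of the eye lens, and 4 of their genes that lie together on chromosome 1 were called higher. Crygd (Entrez Gene 12967, minus strand of chromosome 1, 65108412 to 65110014, mm9) had 240 normalised reads in NOD1 and 565 in NOD5, and 2.62 in B6 and 5.12 in the library labelled v6.5. It was 104-fold higher (limma log2 fold change 6.29, SE 0.62, adjusted p = 0.00644). Crygc had 64.7 and 99.4 normalised reads in the NOD lines and 3 reads in the control libraries (pooled ratio 46.8, counting interval 15.8 to 228), Cryga 48.9 and 85.7 against 2 reads (59.1, 16.2 to 492) and Cryge 35.9 and 44.0 against 1 read (64.9, 11.4 to 2586). B6 held no read of Crygc, Cryga or Cryge. Cryab, the small heat shock protein alpha-B crystallin, had 21.6 and 9.47 normalised reads in the NOD lines and 39.3 and 23.1 in the control lines and was not called. Of the 18 crystallins listed, 7 passed the filter and these 4 were called, each with under 10 reads in a control library, so that they passed only with the help of the NOD libraries. With no filter the 16 crystallins with a read had a median log2 fold change of 1.55 and none was called. The 4 genes resemble each other, with 19.7% to 48.3% of their 50-base stretches found in other genes, so reads may be divided among them. Without NOD1 none of the 4 was called by limma and 1 by edgeR, and without NOD5 limma called 1.

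The promoters of these 4 crystallin genes are shown because the genes are neighbours and were called in the same direction. Each line gives 66 bases 5′ to 3′ on the gene's strand from RefSeq promoter windows of GRCm38.p6, all on the minus strand of chromosome 1, with the longest run common to all 4 windows (CTTTTGTG) and the TATATA that follows it in capitals. The window of 250 bases before to 50 after the start spans 65103314 to 65103613 for Cryga, 65073483 to 65073782 for Crygc, 65063391 to 65063690 for Crygd and 65051114 to 65051413 for Cryge.
Cryga: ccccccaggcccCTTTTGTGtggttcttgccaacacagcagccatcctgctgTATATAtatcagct
Crygc: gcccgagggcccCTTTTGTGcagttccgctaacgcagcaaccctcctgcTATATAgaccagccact
Crygd: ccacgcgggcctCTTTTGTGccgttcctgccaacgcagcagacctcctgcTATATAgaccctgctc
Cryge: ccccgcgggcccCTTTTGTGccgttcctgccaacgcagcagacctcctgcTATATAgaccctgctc
The run of 8 bases begins 56 to 79 bases before the annotated start, and 29 to 32 bases separate it from the TATATA. On either strand CTTTTGTG was found in 1.34% and TATATA in 5.94% of the 27025 promoter windows of the table. A match is a description of these letters only.

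Germ line genes kept silent by DNA methylation in most cells were called higher in 8 of 30 tested members and lower in none, with a median log2 fold change of 2.08. Of the 30, 12 had under 10 reads in a control library, and 3 of the 8 called were among them. These 12 passed the filter only with the help of the NOD libraries, which favours a higher value there. The share called and the median are therefore not read against those of all genes. Dazl, an RNA-binding protein of germ cells, had 2688 and 1417 normalised reads in the NOD lines and 309 and 602 in the control lines. Fkbp6, a chaperone of the piRNA pathway and of meiosis, had 710 and 549 against 28.8 and 67.9. Mael and Tdrd9, which act in transposon silencing, were 5.33-fold and 5.97-fold higher, and Syce1, of the synaptonemal complex, and Tuba3a, a testis tubulin, were 3.07-fold and 4.31-fold higher. Xlr3a stood at 289 and 116 against 0 and 6.40, and Xlr3c at 204 and 132 against 1.30 and 0. Members that missed the threshold included Dpep3 (608 and 65.3 against 9.16 and 24.3, adjusted p = 0.0612) and Piwil2 (710 and 193 against 78.5 and 84.5, adjusted p = 0.0595), in which NOD1 stood far above NOD5. Under equal totals 21 of the methylation-sensitive germline members were called higher, with edgeR 12, and the count was 5 without B6 or without the library labelled v6.5, 11 without NOD5 and 0 without NOD1 (edgeR, 3). Of 15 genes for enzymes and readers of DNA methylation, only Tet1, which oxidises methylcytosine, was called by limma (edgeR, 1 higher and 1 lower; DESeq2, 1 and 2): it fell from 12055 and 7037 to 1788 and 3421 normalised reads.

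Dppa3, also called Stella, a protein of naive pluripotent and germ cells that limits the maintenance of DNA methylation, had 992 normalised reads in NOD1 and 1031 in NOD5, and 28.8 in B6 and 30.7 in the library labelled v6.5. It lies on the plus strand of chromosome 6 (Entrez Gene 73708, 122576442 to 122580289, mm9) and was 34.0-fold higher (log2 fold change 5.04, SE 0.34, limma adjusted p = 0.00328). The libraries of each side stood close to each other. Dppa5a, an RNA-binding protein of ES cells, was 2.42-fold higher at 7499 and 7680 against 3238 and 3043. Of the 24 genes of the naive pluripotency list these 2 were called higher and 4 lower. The shares, 8.33% and 16.7%, compare with 4.93% and 4.34% of all genes tested. Klf5, a transcription factor of the naive state, fell from 2130 and 1432 to 194 and 691, and Tet1 is the second. Stat3 fell from 997 and 966 to 401 and 388 and Lifr from 1633 and 1732 to 587 and 816, the transcription factor and a receptor chain of LIF signalling. In limma the naive pluripotency list had no lower call without B6, without the library labelled v6.5 (edgeR, 4) or without NOD1, while 10 members were called lower without NOD5. With equal totals 3 were higher and 1 lower.

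The core pluripotency factors were not called. Pou5f1 had 6320 and 10173 normalised reads in the NOD lines and 3300 and 3944 in the control lines (log2 fold change 1.15, SE 0.32, adjusted p = 0.0616). Sox2 (2596 and 6922 against 7697 and 5762) and Nanog (1825 and 6795 against 7674 and 8633) differed more within the NOD pair than between the sides, with adjusted p of 0.374 and 0.186. None of the 8 core pluripotency genes was called by limma or edgeR, 2 had an unadjusted limma p under 0.05 and DESeq2 called 2. Without NOD5, limma and edgeR each called 3 of the core pluripotency genes lower, and the median log2 fold change went from 0.33 to −0.14 in limma. Genes that read out ERK signalling, which 2i blocks, were called lower in 4 of 12 and higher in 1. These shares, 33.3% and 8.33%, compare with 4.34% and 4.93% of all genes tested. Myc fell from 132 and 66.6 to 1.43 and 8.05, Etv4, an ETS transcription factor, from 116 and 232 to 18.7 and 8.52, Ier3 5.6-fold and Spred1, a Ras inhibitor, 2.81-fold. Dusp4, a phosphatase of ERK, rose from 13.1 and 21.8 to 194 and 183. Of the ERK feedback list limma called 6 lower without NOD5 (edgeR, 7), 1 without B6, and none without NOD1 or the library labelled v6.5 (edgeR, 1 without the latter).

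Of 27 imprinted genes tested, read from 1 parental copy, 5 were called higher and 3 lower (18.5% and 11.1%, against 4.93% and 4.34% of all genes tested). Meg3 and Rian, noncoding RNAs of one imprinted cluster on chromosome 12, stood at 1734 and 1313 against 479 and 270, and at 1139 and 2630 against 561 and 589. Igf2r, the receptor that clears IGF2, was 3.08-fold higher, Usp29 3.14-fold, and Magel2 had 3 reads in the control libraries (pooled ratio 11.2, counting interval 3.65 to 55.7). Nnat, a small membrane protein of developing brain, had 62.8 and 64.1 normalised reads in the control lines and 2 reads in the NOD libraries. Magel2 and Nnat passed the filter only with the help of the side where each is higher. Peg3 and Plagl1, both zinc finger proteins, were 3.98-fold and 2.3-fold lower. In limma the imprinted list had no higher call without the library labelled v6.5, no lower call without B6 (edgeR, 1), and no call in either direction without NOD1 (1 in each in edgeR).

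MHC class II genes, which present peptides to CD4 T cells, gave 3 calls among 7 tested members, all higher. Of the 7, 4 had under 10 reads in a control library, 2 of the 3 called among them. These passed the filter only with the help of the NOD libraries. H2-Eb1 (Entrez Gene 14969, plus strand of chromosome 17, 34442812 to 34453619, mm9) had 764 normalised reads in NOD1 and 586 in NOD5, and 27.5 and 25.6 in the control lines. It was 25.4-fold higher (log2 fold change 4.60, SE 0.38, limma adjusted p = 0.00427). H2-Aa had 21.6 and 32.2 normalised reads against 1 read in the control libraries (pooled ratio 45.7, counting interval 7.97 to 1825), and H2-DMa 30.2 and 28.4 against 3.92 and 2.57. Ciita, the activator of class II transcription, stood at 18.7 and 20.4 against 2.62 and 6.40 (adjusted p = 0.129), and Cd74, the invariant chain, at 15.8 and 14.7 against 34.0 and 50.0 (adjusted p = 0.151). With any 1 of the 4 libraries left out, at most 1 MHC class II gene was called.

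Among 14 MHC class I genes tested, H2-Bl, at 211 and 209 normalised reads against 5.24 and 6.40, and H2-T23, a non-classical member with 1 read in the control libraries (pooled ratio 29.2, counting interval 5.01 to 1173), were called higher. Both had under 10 reads in each control library, so they passed the filter only with the help of the NOD libraries. The classical H2-K1 (137 and 150 against 164 and 242), H2-D1 (288 and 292 against 123 and 188) and H2-L (174 and 177 against 61.5 and 83.3) were not called. The annotated interval of H2-L lies inside that of H2-D1 on the same strand. Their values may therefore count the same reads, which was not measured. Tap2, a subunit of the transporter that loads peptides, rose from 14.4 and 12.8 to 148 and 60.1. Its partner Tap1 stood at 364 and 69.1 against 49.7 and 6.40 and missed the threshold (adjusted p = 0.102).

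Of 18 innate sensing genes tested, 2 were called higher and 3 lower (11.1% and 16.7%, against 4.93% and 4.34% of all genes tested). Tlr2, the receptor of bacterial lipoproteins, rose from 35.3 and 35.9 to 144 and 175. Pycard, the adaptor ASC of the inflammasome, rose from 221 and 145 to 745 and 509. Aim2, which senses DNA in the cytosol, went down from 1823 and 1002 normalised reads to 175 and 114 (log2 fold change −3.25, SE 0.39, adjusted p = 0.00838). Nod1, a sensor of bacterial peptidoglycan, fell from 953 and 360 to 46 and 25.1, and Tmem173, the adaptor STING, from 75.9 and 79.4 to 12.9 and 18.0. Interferon-stimulated genes gave 2 higher and 3 lower calls of 24 (8.33% and 12.5%, against 4.93% and 4.34% of all genes tested). Ly6e, a membrane protein that limits virus entry, rose from 366 and 415 to 3782 and 3061, and Bst2, the antiviral protein tetherin, from 229 and 334 to 2538 and 996. Xaf1, Eif2ak2 and Ifitm2 were 13-fold, 2.88-fold and 2.49-fold lower. Xaf1 had under 10 reads in each NOD library and passed the filter only with the help of the control libraries. Of 9 interferon receptor and signalling genes none was called by limma, edgeR or DESeq2, with 1 at an unadjusted p under 0.05, and Ifngr1 stood at 128 and 103 against 90.3 and 118.

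Of cytokines, Kitl, the ligand of the receptor Kit, rose from 27.5 and 35.9 to 102 and 307, and Tgfb2 fell from 192 and 32.0 to 4.31 and 7.11, while Cxcl1, Cxcl2, Ccl20, Ccl5, Tlr4, Tlr5, Tlr9 and Il22ra2 held at most 7 reads in any library and were not tested. None of 8 complement and Fc receptor genes and none of 14 type 1 diabetes candidates was called by limma or edgeR. At an unadjusted limma p under 0.05 there were 4 and 6 of them, and DESeq2 called 3 and 4. Fcgr3, an activating Fc receptor, stood at 71.9 and 31.7 against 7.85 and 8.97 (adjusted p = 0.0623), Pcmtd1 at 2166 and 1725 against 1110 and 929 (adjusted p = 0.0659), and Igfbp2 at 14264 and 8125 against 6352 and 4790 (adjusted p = 0.119).

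Of 24 tested genes on the glycolysis list, 12 were called lower in the NOD lines and 1 higher. These shares are 50% and 4.17%, against 4.34% and 4.93% of all genes tested. The median log2 fold change of the list was −1.37. The list also holds Bnip3 and Ero1l, hypoxia-induced genes that are not part of glycolysis, and both are among the 12. The median was −1.41 against B6 alone and −1.37 against the library labelled v6.5 alone, and these values share the NOD libraries. Ldha, lactate dehydrogenase A (Entrez Gene 16828, plus strand of chromosome 7, 54102452 to 54110997, mm9), had 1398 normalised reads in NOD1 and 2502 in NOD5, and 8282 and 11438 in the control lines, a 5.06-fold difference (log2 fold change −2.38, SE 0.35, limma adjusted p = 0.0132). Slc16a3, which exports lactate, had 82.0 and 239 against 1296 and 2169. Tpi1, triose phosphate isomerase, had 833 and 1045 against 5734 and 10382. NOD1 lay below NOD5 in 15 of the 24, and both lay below both control lines in 18, against 28.5% of all genes tested. The glucose transporter Slc2a1 was 4.71-fold lower, hexokinase Hk2 4.41-fold, Gpi1 4.58-fold, Pfkl 3.59-fold, Aldoc 2.88-fold and Aldoa 2.38-fold. Pdk1, a pyruvate dehydrogenase kinase, was 5.27-fold lower, Bnip3, a mitophagy receptor, 7.83-fold and Ero1l, an oxidase of the endoplasmic reticulum, 2.87-fold. Pfkm, the muscle phosphofructokinase, rose from 698 and 407 to 1356 and 1318. Of 18 members outside chromosomes 6 and 8, 10 were called lower. Equal totals gave 8 lower calls, the fit without the library labelled v6.5 gave 6, without B6 9, without NOD5 14 and without NOD1 0 (edgeR, 1).

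Further genes known to be induced by low oxygen, a list added after the values were seen, were called lower in 6 of 21 and higher in none. The share called lower was 28.6%, against 4.34% of all genes tested, and the median was −1.18. Adm, the vasoactive peptide adrenomedullin, had 79.8 and 29.5 normalised reads in the control lines and 0 and 2.84 in the NOD lines. Ndufa4l2 fell from 232 and 261 to 7.19 and 15.2 and Egln3, an oxygen-sensing prolyl hydroxylase, from 1165 and 626 to 97.8 and 128. Adm and Ndufa4l2 had under 10 reads in a NOD library and passed the filter only with the help of the control libraries. Loxl2, Plod2 and Bhlhe40 were 24.7-fold, 4.11-fold and 3.53-fold lower, and Loxl2 is also counted among the mesenchymal matrix genes below. Without the library labelled v6.5 4 of the hypoxia-induced genes outside glycolysis were called, without NOD5 10 and without NOD1 0 (edgeR, 2).

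Ldha and Bnip3 are shown as members whose promoters hold the core bound by hypoxia-inducible factors, ACGTG or GCGTG, several times. The RefSeq windows of GRCm38.p6 run from 46845554 to 46845853 on the plus strand and from 138909457 to 138909756 on the minus strand of chromosome 7, 5′ to 3′, with each match on either strand in capitals.
Ldha: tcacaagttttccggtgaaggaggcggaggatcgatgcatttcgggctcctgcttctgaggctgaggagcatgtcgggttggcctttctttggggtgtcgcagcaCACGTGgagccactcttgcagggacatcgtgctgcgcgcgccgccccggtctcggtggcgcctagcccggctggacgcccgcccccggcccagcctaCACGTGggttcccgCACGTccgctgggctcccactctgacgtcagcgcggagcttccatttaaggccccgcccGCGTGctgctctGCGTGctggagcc
Bnip3: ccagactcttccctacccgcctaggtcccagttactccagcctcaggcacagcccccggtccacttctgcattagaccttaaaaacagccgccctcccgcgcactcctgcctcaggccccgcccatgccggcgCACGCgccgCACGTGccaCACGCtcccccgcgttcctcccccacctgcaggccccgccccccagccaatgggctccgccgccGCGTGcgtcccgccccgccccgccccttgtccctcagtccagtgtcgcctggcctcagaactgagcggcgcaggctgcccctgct
Ldha has 7 matches and Bnip3 has 5, where CACGTG counts on both strands. At least 1 match was found in 9 of the 12 glycolysis genes called lower (75.0%), against 73.9% of the 23 tested glycolysis genes with a window, 64.0% of the 10333 tested genes with a window and 43.8% of all windows. The share among the genes called lower was thus close to that of the whole list.

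**Figure D3:**
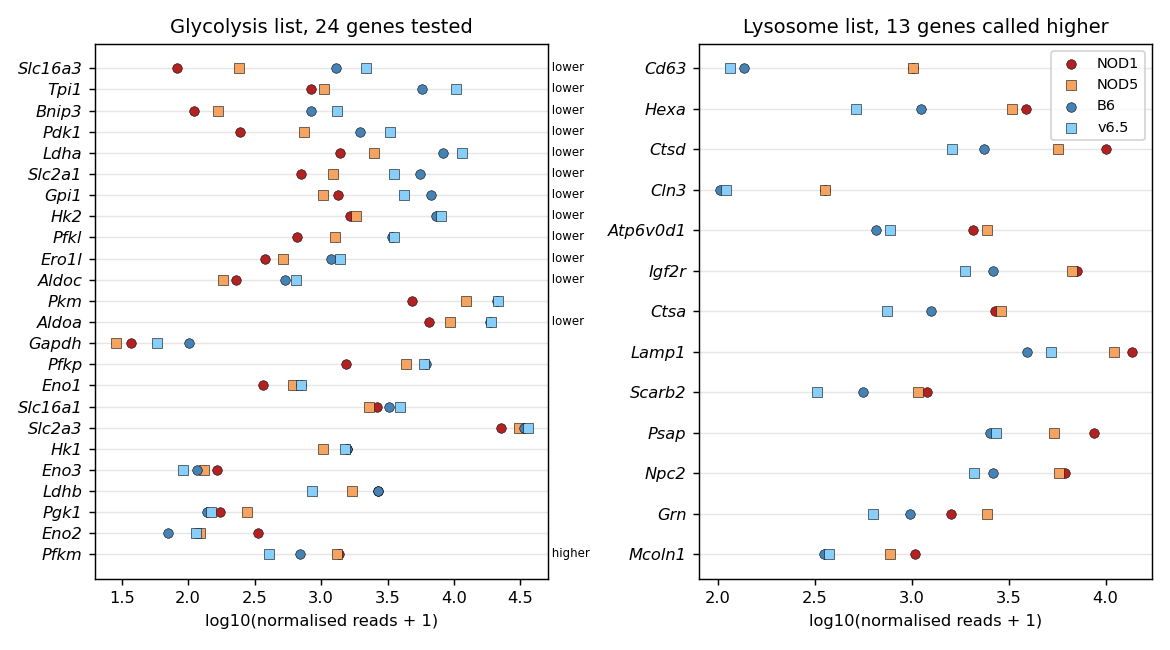
Normalised reads, as log10(value + 1), of the 24 glycolysis genes tested (left, ordered by log2 fold change, with the call at the right margin) and of the 13 lysosome genes called higher (right), 1 point per library. On the left the NOD points lie below the control points in the upper rows, and on the right they lie above them in every row.

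Lysosome genes, a list added after the values were seen, were called higher in 13 of 44 and lower in none. The share called higher was 29.5%, against 4.93% of all genes tested. The median log2 fold change of the lysosome genes was 0.68, against 0.05 for all genes tested, and 40 of the 44 values were positive. Both NOD lines lay above both control lines in 32 of the 44, against 32.3% of all genes tested. Ctsd, cathepsin D, stood at 9997 and 5701 against 2363 and 1608, Hexa, a hexosaminidase, at 3868 and 3268 against 1114 and 511, and Cd63, a tetraspanin of late endosomes, at 1015 and 1009 against 135 and 114. Npc2, which hands on cholesterol, Lamp1, Scarb2, Ctsa, Grn, Psap and Igf2r were 2.51-fold to 3.08-fold higher, Mcoln1, a calcium channel, 2.50-fold, and Cln3 and the proton pump subunit Atp6v0d1 3.39-fold and 3.16-fold. The motif TCACGTGA, which is its own reverse complement and is bound by TFEB, a regulator of lysosome genes, was in the windows of 4 of the 13 called genes and of 5 of 33 lysosome genes with a window, against 1.92% of tested genes with a window and 1.01% of all windows. Of 37 members outside chromosomes 6 and 8, 10 were called higher. The lysosome count was 7 without B6, 1 without the library labelled v6.5, and 0 without NOD1 (edgeR, 2).

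Cytosolic ribosomal proteins, chosen by symbol after the values were seen, were called higher in 24 of 81 and lower in 1. These are 29.6% and 1.23%, against 4.93% and 4.34% of all genes tested, and the median was 1.0. Rpl37 stood at 1245 and 1325 normalised reads against 72.0 and 78.1, Rpl13 at 4236 and 3836 against 332 and 565, and Rps14 at 8420 and 6584 against 872 and 958. Of the 81 log2 fold changes 18 were negative. Rps18 was the 1 called lower, at 31.6 and 32.2 against 132 and 123. Many ribosomal protein genes have processed copies, and 37.9% of the 50-base stretches of Rpl7a and 71.0% of those of Rps3a1 occur in other genes. Rpl26 and Gm15772 had identical values in every library, so they share their reads. Subunits of the respiratory chain and ATP synthase encoded in the nucleus, also chosen by symbol, were called higher in 16 of 77 and lower in 1. These are 20.8% and 1.3%, against 4.93% and 4.34% of all genes tested, and the median was 0.58. Cox8a, Atp5e and Ndufa2 were 9.90-fold, 7.59-fold and 4.78-fold higher, and Cox6c fell 2.80-fold, from 2812 and 2749 to 1139 and 846. The ribosomal count was 14 without B6, 15 without the library labelled v6.5 and 0 without NOD1 (edgeR, 9), and the respiratory count 4, 2 and 0 (edgeR, 3).

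Both groups are made of short transcripts, and exon length moved with the calls. The median exon length was 2042.5 bases for genes called higher, 3411 for genes called lower and 2860.5 for all genes tested. Among 10 bins of genes by exon length, the bin with the shortest exons had 10.6% of its genes called higher and 3.52% lower, with a median log2 fold change of 0.35, and the bin with the longest had 1.91% and 8.19%, with a median of −0.29. Removing the trend with length within each library left 19 cytosolic ribosomal proteins higher and 4 lower with a median of 0.56, and 9 of the nuclear-encoded respiratory chain and ATP synthase genes higher and 2 lower with a median of 0.25. The glycolysis list had 12 lower calls and a median of −1.50 in that fit, and the 2-cell-like state list 10 higher calls.

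**Figure D4:**
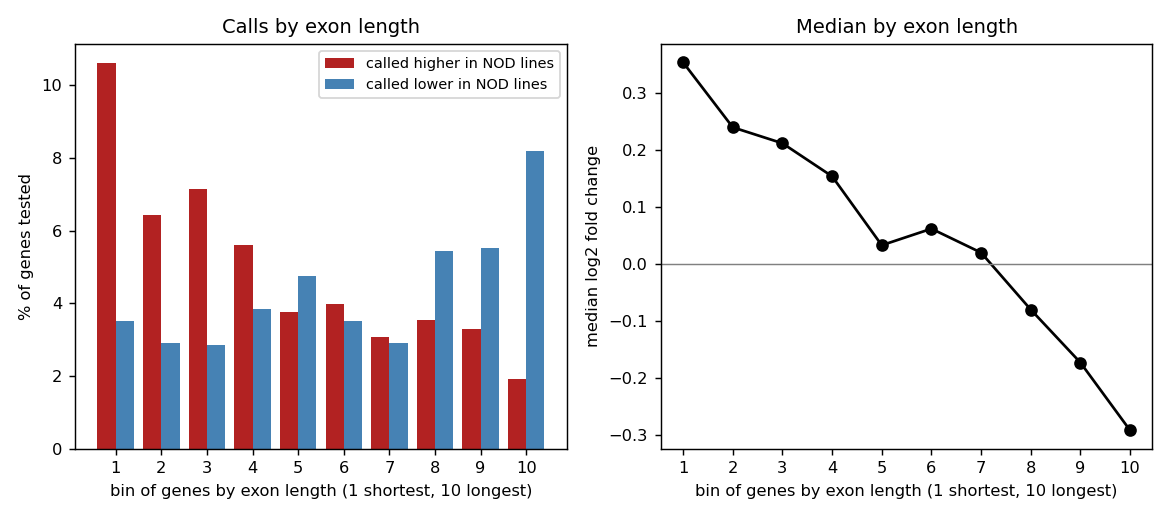
Left, the percentage of genes tested that were called higher (red) or lower (blue) in the NOD lines in each of 10 equal bins of genes by summed exon length. Right, the median log2 fold change of each bin. The share called higher falls from 10.6% to 1.91%, the share called lower rises from 3.52% to 8.19%, and the median falls from 0.35 to −0.29 from the shortest to the longest bin.

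Cell division genes, listed after the values were seen, were called lower in 9 of 31 and higher in none, with a median of −0.77. The share called lower was 29%, against 4.34% of all genes tested. Cenpf and Cenpe, proteins of the kinetochore, stood at 3729 and 2230 against 9054 and 9332 and at 1665 and 1653 against 4722 and 4407. Tpx2 and Nusap1, of the spindle, were 2.81-fold and 3.6-fold lower, the kinesins Kif11 and Kif23 2.10-fold and 2.41-fold, Birc5, of the chromosomal passenger complex, 2.37-fold and Rrm2, a ribonucleotide reductase subunit, 2.25-fold. With equal totals only 1 cell division gene was called, without B6 2, without the library labelled v6.5 1 and without NOD1 0 (edgeR, 2). Of 57 clustered histone genes, whose RNAs lack a poly(A) tail in dividing cells, a list added after the values were seen, 4 were higher and 6 lower. These shares, 7.02% and 10.5%, compare with 4.93% and 4.34% of all genes tested. Besides Hist1h3f and Hist1h2bg, Hist1h2bf and Hist1h4n were 28.5-fold and 15.3-fold lower, and Hist1h4i and Hist1h2bn 5.07-fold and 5.36-fold higher, and 28.9% to 86.4% of the 50-base stretches of these last 4 genes are shared with other genes.

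Genes of the integrated stress response, the program that ATF4 runs when translation initiation is slowed, gave 5 higher calls and no lower call among 19. The share called higher was 26.3%, against 4.93% of all genes tested. All 19 values were positive (median 1.16, against 0.05 for all genes tested). Both NOD lines lay above both control lines in 12 of the 19, against 32.3% of all genes tested. Trib3, a pseudokinase, stood at 362 and 1290 against 41.9 and 108, Atf5 at 236 and 1210 against 70.7 and 42.3, Ddit3, the transcription factor CHOP, at 631 and 328 against 65.4 and 65.3, Cebpb at 87.7 and 92.3 against 15.7 and 11.5, and Phgdh, the first enzyme of serine synthesis, at 224 and 268 against 34.0 and 55.1. Atf4 itself (3676 and 7874 against 3130 and 3260) was not called. The NOD lines differed from each other about as much as the sides did. The list summed to 30591 normalised reads in NOD1 and 63583 in NOD5, against 24293 in B6 and 31872 in the library labelled v6.5. The median log2 difference of NOD1 from NOD5 was −1.10, and that of the NOD mean was 1.30 from B6 and 0.55 from the library labelled v6.5. The integrated stress response count was 9 with equal totals, 3 without NOD5 or without the library labelled v6.5 and 0 without NOD1 (edgeR, 3). Of 21 p53 pathway genes 4 were called higher (19%, against 4.93% of all genes tested) and none lower. Aen and Bbc3, which act in cell death, Phlda3, an Akt inhibitor, and Gdf15, a secreted stress factor, rose 2.76-fold to 5.07-fold. No p53 gene was called without the library labelled v6.5 or NOD1. Among 15 heat shock genes Hspa8, the constitutive Hsp70 chaperone, was the only call by limma or edgeR (DESeq2, 2; limma without NOD5, 5), at 482 and 1018 against 9877 and 8289, and 38.6% of its 50-base stretches occur in other genes.

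Mesenchymal matrix genes gave lower calls only, and the control lines were unlike each other in them. Of 22 tested, 4 were called lower and none higher in limma, with a median of −2.80, and edgeR called 11. The 4 limma calls are 18.2%, against 4.34% of all genes tested called lower. The median was −3.94 against B6 alone and −1.67 against the library labelled v6.5 alone. Col3a1 stood at 18.7 and 24.1 normalised reads in the NOD lines, 769 in B6 and 170 in the library labelled v6.5, Loxl2, which crosslinks collagen, at 14.4 and 32.2 against 773 and 375, and Vim, the intermediate filament vimentin, at 51.8 and 221 against 1606 and 899. Col1a2 was the fourth call. Col1a1 (33.1 and 46.4 against 1737 and 152) missed the threshold with an adjusted p of 0.0565. Without B6 2 matrix genes were called by limma, without the library labelled v6.5 11, and without NOD1 0 (edgeR, 0). Of 13 fibroblast markers 7 passed the filter, and the 2 called lower, Col1a2 and Col3a1, are matrix genes counted above. The fibroblast list summed to 335 and 214 normalised reads in NOD1 and NOD5, 4042 in B6 and 682 in the library labelled v6.5, Dcn, Twist2 and Fap had at most 2 reads in any library, Lum at most 11, and S100a4 and Prrx1 at most 48. Their part in the matrix result was not tested.

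Of 11 trophoblast and simple keratin genes tested, 3 were called higher and 2 lower. These shares, 27.3% and 18.2%, compare with 4.93% and 4.34% of all genes tested. Krt18 rose from 164 and 169 to 3250 and 1122 normalised reads and Krt8, its partner, from 79.8 and 141 to 638 and 793, together with Tfap2c, a transcription factor of trophoblast and germ cells (755 and 1119 against 340 and 205), while Krt19, another keratin, and Eomes, a transcription factor of trophoblast and mesendoderm, fell 5.6-fold and 9.25-fold. Of the epithelial junction genes, Cldn6 and Cldn4, claudins of tight junctions, were 7.40-fold and 2.93-fold higher and Tjp1, their scaffold, 2.19-fold lower. Plau, urokinase, stood at 224 and 335 against 14.4 and 6.40, Mmp9 at 66.1 and 41.7 against 5.24 and 8.97 and Serpinh1, the collagen chaperone, at 2606 and 4442 against 1201 and 715. Mmp14, a membrane metalloprotease, was 2.79-fold lower. Of the IGF axis, Irs2, an adaptor of the insulin receptor, was 5.12-fold higher and Igfbp4, which binds IGF, 26.6-fold lower. Of basement membrane genes Nid1 and Sparc were 3.78-fold and 3.10-fold lower.

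The calls were not spread evenly over the chromosomes. On chromosome 6, 87 of 614 genes tested (14.2%) were called lower and 19 higher, and on chromosome 8, 64 of 706 (9.07%) were called higher and 12 lower. The median log2 fold change was −0.40 on chromosome 6 and 0.41 on chromosome 8, and between −0.23 and 0.20 on the other autosomes and chromosome X. On chromosome 6 the NOD lines lay below both control lines, by a median of 0.36 against B6 and 0.51 against the library labelled v6.5, and all 5 stretches of equal gene number along it had a negative median (−0.18 to −0.62). On chromosome 8 the median difference was 0.65 against B6 and 0.09 against the library labelled v6.5, with B6 the lower of the control lines there. Dosage of these chromosomes was not measured and its part in the calls was not tested. Subtracting each chromosome's median within each library left 610 higher and 649 lower calls, 1062 of them shared with the calls above. Of the glycolysis genes named above Tpi1 and Hk2 lie on chromosome 6. So do A2m, Rerg, Serbp1, Wnk1, Col1a2, Bhlhe40 and Nod1, all called lower, and Dppa3 and Tuba3a, called higher. Lamp1, Bst2, Irs2, Dusp4, Gdf15, Mcoln1, Atp6v0d1 and Rpl13, all called higher, lie on chromosome 8.

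**Figure D5:**
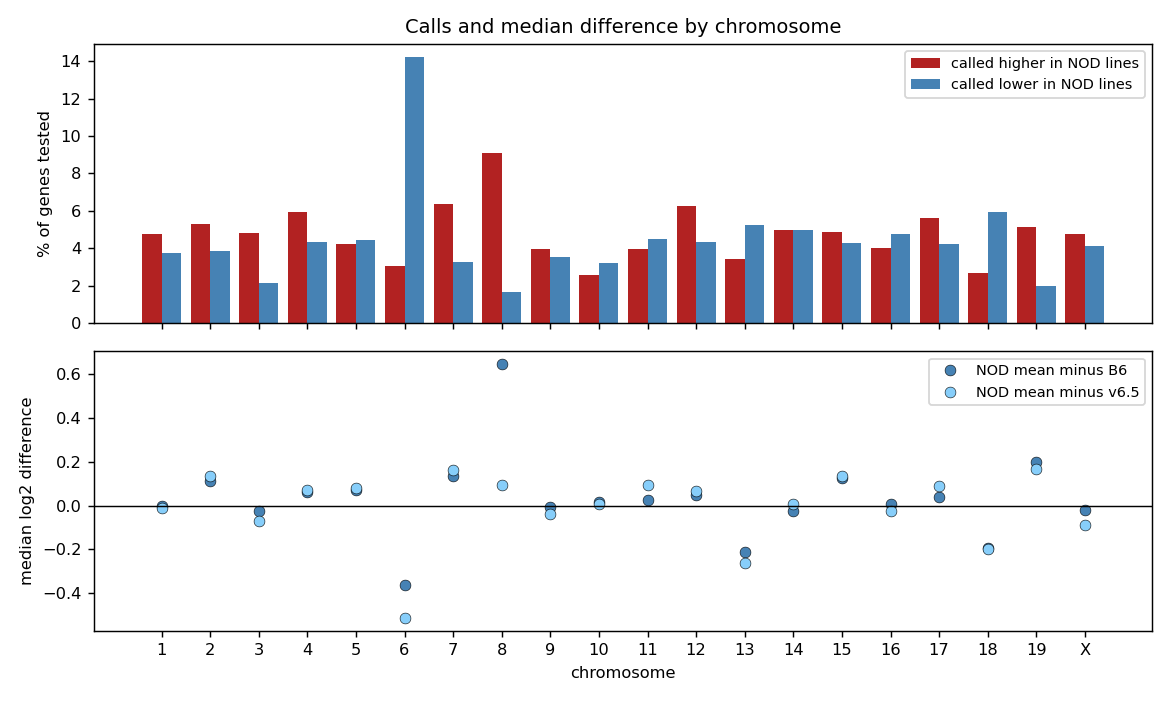
Top, the percentage of genes tested on each chromosome that were called higher (red) or lower (blue) in the NOD lines; bottom, the median over genes of the log2 difference of the NOD mean from B6 and from v6.5. Chromosome 6 stands out with 14.2% lower and chromosome 8 with 9.07% higher, and on chromosome 8 the point for B6 lies at 0.65 and that for v6.5 at 0.09.

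Y-linked genes were detected in all 4 libraries. Eif2s3y, a translation initiation factor, stood at 410 and 351 normalised reads in the NOD lines, 9.16 in B6 and 24.3 in the library labelled v6.5, and Ddx3y, an RNA helicase, at 370 and 381 against 68.1 and 50.0. Both were called higher. Uty, a demethylase gene, stood at 82.0 and 137 against 96.8 and 30.7 and was not called. The fourth tested gene on chromosome Y, Uba1y, a ubiquitin-activating enzyme outside the list and chosen after its values were seen, stood at 53.2 and 76.2 against 1.30 and 2.57 and was called higher. Of 8 tested genes of X inactivation limma called none (1 had an unadjusted p under 0.05), while edgeR and DESeq2 called 1 each.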

How the data were processed

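RNA of 2 NOD and 2 control ES cell libraries was compared. The authors aligned single-end 50-bp reads to the mm9 genome with STAR (2.2.0c in the submitters' processing notes; the study's methods give another version), and HOMER counted them over RefSeq exons with strand kept. The genome is that of C57BL/6, and the effect on reads of other strains was not measured. The deposited signal values are gene counts rescaled by the authors to equal totals, with whole reads recovered: 100% of values below 3000 lay within 0.05 of a whole read. Depth was therefore known, from 7713133 to 21387796 reads, and counting intervals and floors of 3 reads cover counting error only. The 9 deposited columns of the authors' comparisons (log2 fold changes, p-values and FDR) were not used, and 27 of 24016 symbols that had become dates are not named.

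Values were divided by TMM factors (edgeR 4.0.16), filtered with filterByExpr on recovered reads and tested with limma-trend (limma 3.58.1, R 4.3.3) on log2(value + 1), in which low genes are understated. A gene with under 10 reads in a library of 1 side passed the filter only with the help of the other side, which favours a higher value there. Residual degrees of freedom were 2, and p-values were adjusted over 13052 genes by Benjamini-Hochberg. A ratio or fold is of mean normalised reads, and a pooled ratio is of summed reads. Because the design planned limma for rescaled counts, edgeR's quasi-likelihood test and DESeq2 1.42.0 on recovered reads were alternatives. On simulated data with 1 common spread, limma called 8.6% of changes of 2-fold, 60.0% at 4-fold and 96.9% at 8-fold, and 1.9% of its calls were false. The comparison, the genes and the lists were chosen with earlier results of these data known, and lists marked as added were chosen after the values of this comparison were seen. Named genes were the 10 with the largest change in each direction, among calls that did not overlap between the sides and had at least 100 normalised reads in both libraries of the higher side, the 10 most abundant calls in each direction, called list members, genes of the study's text, Rn45s and Rmrp. A gene that the rule named is not reported here. Promoter windows matched 79.2% of tested genes, so CpG content over called genes was not computed. Shared 50-base stretches came from GENCODE M21 transcripts. They also made up 45% in Loxl2, 47.8% in Phgdh, 54.3% in Gstp2, 48.5% in Ifitm2 and 50.9% in Ftl1. Reads of these genes may therefore belong to a copy.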

Additional observations from a re-analysis of the deposited data

How the results depend on the processing

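The main counts were 644 higher and 567 lower, 1211 in all. Equal totals gave 1057 higher and 256 lower, and DESeq2's Wald test 1187 and 1022, 2209 in all. With no filter on low values limma called 0 in either direction (0 higher, 0 lower), with 5090 genes at an unadjusted p under 0.05, and edgeR without any filter called 196 higher and 165 lower, 361 in all. Leaving out 1 library in limma gave 0 to 1763 calls, 0 to 722 higher and 0 to 1041 lower, and in edgeR 226 (153 higher, 73 lower) without NOD1, 1969 (990 and 979) without NOD5, 481 (275 and 206) without B6 and 539 (242 and 297) without the library labelled v6.5, where a lone library is assumed to vary like the other side. The cause was not tested. DESeq2 size factors, TMM without Rn45s, pseudocounts of 0.5 and 5, a filter of 50 normalised reads in 2 libraries, all 5 libraries in the fit, edgeR on the 4 libraries, and, added after the values were seen, removal of exon length trends or chromosome medians kept both counts within 1.5 times.

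Among 161 named genes tested the sign turned for Ddx3y, at −0.76 with chromosome medians removed. Chromosome Y had 4 tested genes with a median log2 fold change of 3.58, above the 2.66 of Ddx3y. That turn therefore follows from the subtraction and says nothing on the direction of Ddx3y. The sign also turned for 2 genes that were never called, Ifngr1 and Sox2. Ifngr1 went from −0.0202 without B6 to 0.34 without the library labelled v6.5. It was −0.017 in edgeR without B6 and −0.0167 with length trends removed. Sox2 went from −1.36 without NOD5 to 0.10 without NOD1 and 0.0832 in edgeR without NOD1. Equal totals lost 30 named calls, edgeR 4 and DESeq2 3. Leaving out NOD1 lost 148, the library labelled v6.5 82, B6 66 and NOD5 31.

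No paired analysis was possible because no replicate number is shared across the sides in pairs: 1 and 5 name NOD lines, and each control line has 1 library.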

Other observations

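Of 27 glutathione and detoxification genes tested, 2 were called higher and 2 lower (7.41% each, against 4.93% and 4.34% of all genes tested). Gstm1 and Gstm5, glutathione transferases of the mu class, stood at 974 and 630 normalised reads in NOD1 and NOD5 against 270 in B6 and 193 in the library labelled v6.5, and at 329 and 181 against 43.2 and 38.4, and both were called higher by limma. Gstp2, of the pi class, and Gpx2, a glutathione peroxidase, were called lower, at 50.3 and 54.4 against 289 and 182 and at 21.6 and 7.57 against 107 and 88.4. KRAB zinc finger genes are a family of DNA-binding repressors. A list of 32 of them, named for chromosomes 2, 4 and 13, does not cover the whole family. Of its 23 tested members 18 had negative log2 fold changes (median −0.82, against 0.05 for all genes tested). The median of all tested genes on chromosome 13 was −0.23. Both NOD lines lay below both control lines in 14 of the 23, against 28.5% of all genes tested. None was called lower by limma, while Zfp956 on chromosome 6 (259 and 214 against 62.8 and 82.0) was called higher. Without NOD5 the median was −1.27 with 6 called lower, and without NOD1 it was −0.32 with no call. Of 12 Wnt target genes, Rnf43, a ligase that removes Wnt receptors, rose 5.83-fold and was the only call by limma or edgeR (DESeq2, 1 higher and 2 lower). This limma call is 8.33% of the list, against 4.93% of all genes tested called higher. Of 21 cholesterol synthesis genes, Fdft1, squalene synthase, was the only call by limma, 2.19-fold lower, and edgeR called none. Among immediate-early genes Jund, on chromosome 8, was 2.79-fold higher and Ier3 lower, among contractile genes Cald1, caldesmon, on chromosome 6, was 3.23-fold lower, and Pdia3, of the peptide loading complex, was 2.52-fold lower. The 14 Nodal pathway genes gave no call in limma or edgeR, with 6 at an unadjusted limma p under 0.05 and 2 called lower by DESeq2, but 6 were called lower by limma without NOD5 and 2 without B6.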
